A study of Homo sapiens with 3 samples.

Results

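7 genes that lead a cluster of pigmented melanocyte-like cells were followed here through 3 time points of melanocyte induction. They are NMRK2, CRYGD, TSPAN10, SERPINF1, LGI3, LINC00520 and RAMP1, 7 of the 36601 genes counted. They were selected because they stood at the top of 1 melanocyte-like group when these same cells had been clustered. Their high level in pigmented cells is therefore a description of how they were selected and was given no test.

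Human pluripotent stem cells were differentiated through embryoid bodies into induced melanocytes, and cells were taken at day 23 (D23), day 32 (D32) and day 44 (D44), with 1 droplet single-cell RNA library per day and no replicate. The medium held Wnt3a-conditioned medium, stem cell factor (SCF), endothelin-3, basic fibroblast growth factor, dexamethasone, cholera toxin and, until the first passage, the phorbol ester TPA. The labels disagree on the starting cells, which are induced pluripotent stem cells by the titles and the embryonic stem cell line H9 by the cell line field, so that libraries were matched by day only. No group was left untreated, and the labels name no difference in genotype between days. D32 and D44 shared 1 induction and 1 sequencing batch, whereas D23 had its own of both, so that for D23 the day, the induction and the batch cannot be told apart.

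Melanocytes build melanin in melanosomes, on fibrils made of the protein PMEL, with the enzymes tyrosinase (TYR), TYRP1 and DCT, and hand the mature organelles on to keratinocytes. MITF is the transcription factor that drives these genes together, and RAB27A carries melanosomes along the cytoskeleton. None of the 7 genes is among those just named. NMRK2 encodes nicotinamide riboside kinase 2, an enzyme that salvages a form of vitamin B3 for the synthesis of NAD and is best known from muscle. CRYGD encodes gamma-D crystallin, a structural protein of the eye lens. TSPAN10 and RAMP1 encode membrane proteins, and SERPINF1 and LGI3 encode secreted ones. LINC00520 is a long noncoding RNA.

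On GRCh38, with GENCODE v44 positions, NMRK2 (ENSG00000077009) lies at chr19:3933069-3942416 on the plus strand and CRYGD (ENSG00000118231) at chr2:208121607-208124524 on the minus strand. TSPAN10 (ENSG00000182612) lies at chr17:81637171-81648754 on the plus strand and overlaps NPLOC4 on the opposite strand. SERPINF1 (ENSG00000132386) lies at chr17:1762029-1777565 on the plus strand and RAMP1 (ENSG00000132329) at chr2:237858893-237912106 on the plus strand. LINC00520 (ENSG00000258791) lies at chr14:55781132-55796731 on the minus strand, and LGI3 is ENSG00000168481, which overlaps another counted gene on the opposite strand. None of the 7 overlaps another counted gene on its own strand. All but LINC00520 are protein-coding.

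Because levels of NMRK2, CRYGD and TSPAN10 went together across cells of the later libraries, the bases just before their RefSeq starts (GRCh38.p14) are shown, 5′ to 3′ on the strand of each gene. The table of RefSeq promoters held 3 of the 7 genes. Bases in an exon of any GENCODE transcript of the gene were left out of the lines, which took 131 of 250 bases for NMRK2 and 15 for TSPAN10. The lines are chr19:3933339-3933457 (plus strand) for NMRK2, chr2:208124525-208124774 (minus strand) for CRYGD and chr17:81642055-81642289 (plus strand) for TSPAN10. Those of NMRK2 and TSPAN10 lie in an intron of longer GENCODE transcripts, and that of CRYGD lies before the gene. Capitals mark a match to 1 of 4 hexamers searched on both strands, CATGTG and CACGTG, the E-box forms that MITF is known to bind, and ACAAAG and ACAATG, forms bound by SOX proteins.
NMRK2: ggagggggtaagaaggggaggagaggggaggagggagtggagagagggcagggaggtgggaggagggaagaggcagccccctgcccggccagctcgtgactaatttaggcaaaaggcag
CRYGD: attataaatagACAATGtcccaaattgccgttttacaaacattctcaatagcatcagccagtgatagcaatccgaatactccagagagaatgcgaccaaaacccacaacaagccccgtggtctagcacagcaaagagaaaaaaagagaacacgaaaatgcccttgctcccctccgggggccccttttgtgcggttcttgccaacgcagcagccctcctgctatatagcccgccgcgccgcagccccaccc
TSPAN10: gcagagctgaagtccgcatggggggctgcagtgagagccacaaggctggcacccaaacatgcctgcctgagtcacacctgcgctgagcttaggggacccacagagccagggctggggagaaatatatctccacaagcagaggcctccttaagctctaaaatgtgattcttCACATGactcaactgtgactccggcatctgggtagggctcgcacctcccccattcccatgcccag
In the whole 250-base windows, TSPAN10 held CATGTG, read on the other strand as CACATG, starting 80 bases before the start, and CRYGD held ACAATG 239 bases before it. No match was found in the NMRK2 window. Among 35116 RefSeq windows of the same length, CATGTG was found in 9.42%, CACGTG in 6.34%, ACAAAG in 13.7% and ACAATG in 9.29%. These matches describe the letters only.

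Cells were called melanocyte-like when PMEL, MLANA, DCT and TYRP1 together made up at least 10 of every 10000 unique molecular identifiers (UMIs, 1 for each captured RNA molecule). This gave 2490 cells in D23 (65.6% of kept cells), 5618 in D32 (93.3%) and 5736 in D44 (98.7%), leaving 1306, 405 and 75 other cells. Median depth was 12651, 36810 and 42966 UMIs per melanocyte-like cell and 12337, 30202 and 41185 per other cell. All 12 melanocyte markers looked at were found in each library, and their summed level was 5681, 11188 and 13098 UMIs per 1000000 (CPM) in melanocyte-like cells against 568, 255 and 1416 in other cells. Other cells therefore still held melanocyte RNA, most of all in D44. The other cells carried mesenchymal markers at 3994, 3006 and 681 CPM in sum and neural or neural crest markers at 7177, 2387 and 256 CPM, and were mixed. Barcodes were rarely shared between libraries, with 16 in D23 and D32, 9 in D23 and D44 and 28 in D32 and D44. Of the 4 keratinocyte markers, KRT5 and KRT1 were at 0 in melanocyte-like cells of every library, whereas KRT10 was at 274, 267 and 279 CPM. Levels below are CPM summed over all cells of a group, given in the order D23, D32, D44 and not divided by transcript length. Intervals are exact, at 95%, and cover counting error only.

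NMRK2 was found in melanocyte-like cells at 11.4 (10.3 to 12.7), 15.55 (15.04 to 16.07) and 15.3 (14.8 to 15.8) CPM. Over all melanocyte-like cells its level was lowest in D23, although among cells of like pigment it was highest there, and the later libraries did not differ beyond counting error, with a D44 to D32 ratio of 0.983 (0.939 to 1.03). When melanocyte-like cells needed 30 pigment gene UMIs per 10000, the D23 level was 17.6 CPM. In other cells it was at 1.38, 1.22 and 1.25 CPM, 8.30-fold (5.45 to 13.3), 12.8-fold (7.86 to 22.4) and 12.3-fold (4.79 to 45.0) below the melanocyte-like cells. The paralogous kinase NMRK1, in contrast, was at 11.7, 13.8 and 12.7 CPM in melanocyte-like and 17.6, 10.8 and 11.2 CPM in other cells. NMRK1 thus differed between cell classes by less than 2-fold in each library. NMRK2 was selected for its level in such cells and NMRK1 was not, so nothing is read from the contrast of the 2 genes. A list of genes for NAD synthesis and use, which also holds integrin genes because the NMRK2 protein is known to bind integrin beta-1, had 20 tested members. Of these, NMRK2 was the only one at least 2-fold higher in melanocyte-like cells of D32 and of D44. NAPRT, which starts NAD synthesis from nicotinic acid, joined it in D23 at 22.5 against 9.46 CPM. Of all tested genes, 8.15%, 10.6% and 7.25% were this much higher in D23, D32 and D44. Since NMRK2 was selected on these cells, nothing is read from its place in the list. The integrin beta-1 gene ITGB1 was lower in melanocyte-like cells of each library by less than 2-fold, at 886, 410.5 and 449.5 against 1124, 641 and 723 CPM. NNMT and NT5E were the only tested genes of the list at least 2-fold lower there in all 3 libraries. The share of all tested genes that were lower was not computed, so nothing is read from this count. NNMT, which methylates nicotinamide, was at 1.12, 2.20 and 0.0266 CPM against 15.7, 164 and 23.7 CPM in other cells. NT5E, an ectoenzyme that can release nicotinamide riboside outside the cell, was at 6.15, 4.43 and 5.26 against 49.5, 71.3 and 87.8 CPM.

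CRYGD was at 0.483 (0.276 to 0.784), 8.27 (7.91 to 8.66) and 13.2 (12.7 to 13.6) CPM in melanocyte-like cells. In D23 this rested on 16 UMIs and did not exceed the 0.778 CPM (0.414 to 1.33) of other cells, so that CRYGD was not detectable there above the level of cells outside the class. In D32 and D44 the other cells held 3 and 1 UMIs, and the ratios were 36.3 (12.4 to 176) and 42.2 (7.57 to 1668). Of the other gamma crystallin genes, CRYGA had 0 UMIs in melanocyte-like cells of each library, CRYGB 0, 3 and 1 and CRYGC 1, 0 and 0. CRYGS, which encodes gamma-S crystallin, had 40, 137 and 165 UMIs, or 1.21, 0.6004 and 0.626 CPM, above CRYGD in D23 and below it in D32 and D44. The lens markers CRYAA and LIM2 were at 0 in each library, and the 9 lens markers summed to 4.38, 6.54 and 10.6 CPM, mostly from the connexin gene GJA3 in D32 and D44. CRYAB, a small heat shock protein, was at 1.96, 3.28 and 1.29 CPM. Among 6 tested crystallin genes, CRYL1, an enzyme gene named for its lens homologue, was the only one at least 2-fold higher in melanocyte-like than in other cells of all 3 libraries, at 92.0, 250 and 136 against 13.1, 18.6 and 67.6 CPM. In single libraries, 8.15%, 10.6% and 7.25% of all tested genes were this much higher, and nothing is read from the count.

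CRYGD was concentrated in very few cells. Cells with 20 or more CRYGD UMIs, a limit chosen after the values were seen, numbered 0 in D23, 18 in D32 and 32 in D44, and held 36.3% of its UMIs in D32 and 55.6% in D44. The highest cell held 110 UMIs in D32 and 247 in D44. These cells were deep, with medians of 51081 and 63985 UMIs, and strongly pigmented, with 135 and 191 pigment gene UMIs per 10000 against 87.3 and 107 in the remaining cells. NMRK2 stood at 124 and 127 CPM in them against 15.1 and 14.4 CPM in the remaining cells, and TSPAN10 at 138 and 184 against 44.8 and 53.4 CPM. Scrublet called 1 cell of each set a doublet, beside 604 of all 5618 melanocyte-like cells in D32 and 488 of 5736 in D44. The part of doublets in these sets was not tested. Without the cells of 20 or more CRYGD UMIs, CRYGD was at 5.30 (5.00 to 5.60) CPM in D32 and 5.89 (5.59 to 6.19) CPM in D44. The D44 to D32 ratio then went from 1.59 (1.50 to 1.68) to 1.11 (1.03 to 1.20). When 1 cell filter was used for all libraries, which drops the deepest cells, CRYGD was at 6.66 CPM in D44.

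TSPAN10 encodes a tetraspanin of the TspanC8 group, whose members escort the protease ADAM10. It was at 15.4 (14.0 to 16.7), 45.2 (44.3 to 46.0) and 54.4 (53.5 to 55.3) CPM, in rising order of day and with separate intervals. In other cells it was at 5.99, 2.05 and 3.74 CPM, for ratios of 2.57 (2.07 to 3.21), 22.0 (15.1 to 33.4) and 14.6 (8.33 to 28.2). Of the 7 tested TspanC8 genes with ADAM10, TSPAN33 was the only other one at least 2-fold higher in melanocyte-like cells, at 7.02 and 6.50 against 1.90 and 2.49 CPM in D32 and D44. TSPAN5 was lower in all 3 libraries, at 7.42, 6.62 and 2.93 against 19.7, 34.3 and 14.6 CPM. ADAM10 itself was at 113, 76.4 and 74.1 against 67.8, 53.2 and 53.6 CPM, less than 2-fold apart in each. Over 20 tested tetraspanins, 4, 2 and 3 were at least 2-fold higher and 3, 6 and 3 at least 2-fold lower in melanocyte-like cells, beside 8.15%, 10.6% and 7.25% of all tested genes that were higher. The share of all tested genes that were lower was not computed, so nothing is read from the counts of lower ones.

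RAMP1 encodes a membrane protein that joins the receptor CALCRL to form the receptor of the neuropeptide CGRP. Its level in melanocyte-like cells was 3.44 (2.84 to 4.13), 7.97 (7.61 to 8.35) and 3.48 (3.26 to 3.72) CPM, highest in D32, with overlapping intervals in D23 and D44. When 1 cell filter was used for all libraries, its D44 level was 2.26 CPM. Its direction against other cells differed between libraries, beyond counting error on both sides. Other cells held 14.0, 4.26 and 2.49 CPM, so the ratio was 0.247 (0.195 to 0.310) in D23, 1.87 (1.43 to 2.49) in D32 and 1.40 (0.707 to 3.25) in D44. CALCRL was at 1.36, 0.649 and 0.364 CPM in melanocyte-like cells and at 14.4, 9.51 and 3.74 CPM in other cells. The CGRP genes CALCA and CALCB were at 0 and at most 0.121 CPM in melanocyte-like cells. ADM, which encodes the related ligand adrenomedullin, was lower in melanocyte-like cells of all 3 libraries, at 2.11, 3.87 and 1.35 against 32.7, 158 and 66.3 CPM. Of the 4 genes of this list of 11 that were tested, ADM was the only one at least 2-fold lower in all 3 libraries, and RAMP2 was at least 2-fold higher in D23 alone. In D23, 8.15% of all tested genes were this much higher. The share that were lower was not computed, and nothing is read from these counts. CALCRL was not among those tested, since its mean level in melanocyte-like cells was under the minimum of 1 CPM. Its ratios to other cells were 0.0945, 0.0682 and 0.0975.

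SERPINF1, the gene of pigment epithelium-derived factor, a secreted serpin that does not inhibit proteases, was the member with the most UMIs in every library. It was at 135 (131 to 139), 250 (248 to 252) and 124 (123 to 125) CPM, highest in D32 and lowest in D44. Other cells held 30.4, 39.6 and 31.8 CPM, for ratios of 4.44 (4.05 to 4.88), 6.31 (5.79 to 6.89) and 3.90 (3.21 to 4.78). Among the 12 tested serpins and receptors of this factor, SERPINF1 was the only one at least 2-fold higher in melanocyte-like cells of all 3 libraries. In single libraries, 8.15%, 10.6% and 7.25% of all tested genes were this much higher. SERPINF1 was selected on these cells, so nothing is read from its place in the list. SERPINE2 was at 764 and 544 against 224 and 162 CPM in D23 and D32, and at 522 against 1105 CPM in D44. SERPINF1 is also a product of retinal pigment epithelium, a different pigmented tissue. Of 12 markers of that tissue and of the eye, OTX2, RAX and SIX6 were at 0 in melanocyte-like cells of D32 and D44, and the 12 summed to 18.7, 13.3 and 8.70 CPM, led by BEST1.

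LGI3 encodes a secreted leucine-rich repeat protein of a family that binds ADAM22 and ADAM23. It was at 2.53 (2.02 to 3.14), 13.2 (12.7 to 13.7) and 11.4 (11.0 to 11.8) CPM in melanocyte-like cells, highest in D32, and its D23 level was 3.95 CPM under the limit of 30. Other cells held only 2, 3 and 2 UMIs of it, for ratios of 21.2 (5.68 to 178), 57.8 (19.8 to 281) and 18.3 (5.07 to 151). Of its family, LGI4 was at 1.06, 0.662 and 2.52 CPM in melanocyte-like cells, and LGI1 and LGI2 stayed below 0.4 CPM there. ADAM23 was at 4.25, 9.50 and 16.6 CPM and ADAM22 at 0.694, 0.530 and 0.395 CPM. Of the 6 tested genes of this list, LGI3 was the only one at least 2-fold higher in melanocyte-like cells of all 3 libraries. In single libraries, 8.15%, 10.6% and 7.25% of all tested genes were this much higher. LGI3 was selected on these cells, so nothing is read from its place in the list.

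LINC00520 was lowest in D32 and highest in D44, at 5.04 (4.30 to 5.86), 3.47 (3.23 to 3.72) and 21.5 (20.9 to 22.1) CPM. D44 stood above both earlier libraries. In other cells it was at 2.87, 0.152 and 4.67 CPM, for ratios of 1.75 (1.27 to 2.47), 22.8 (6.29 to 189) and 4.60 (2.79 to 8.23).

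**Figure D1:**
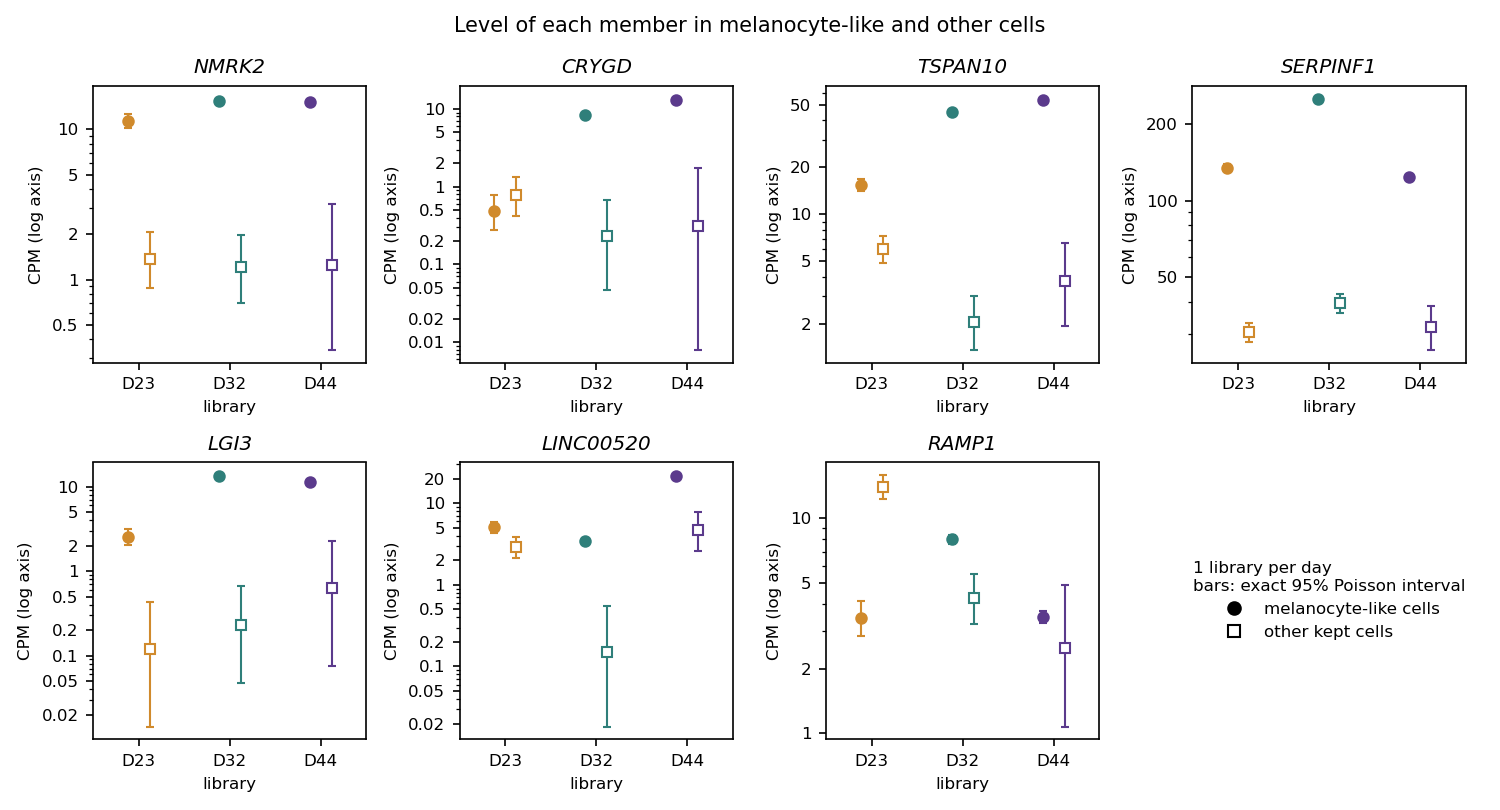
Level of each of the 7 genes in CPM (log axis) in melanocyte-like cells (filled circles) and other kept cells (open squares) of the D23, D32 and D44 libraries, with exact 95% Poisson intervals. The filled circles lie above the squares except for CRYGD and RAMP1 in D23, and the RAMP1 and CRYGD intervals of D44 are wide because only 75 other cells were kept there.

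Shares of cells with at least 1 UMI were compared after each cell was thinned to 5000 UMIs, since D23 was shallower. NMRK2 was found in 4.02%, 5.39% and 5.18% of melanocyte-like cells against 0.416%, 0.494% and 1.33% of other cells. CRYGD was found in 0.0828%, 2.54% and 2.77% against 0.665%, 0.247% and 1.33%, so that its D23 share was no higher than in other cells. TSPAN10 was found in 6.42%, 16.4% and 19.5% against 2.58%, 1.23% and 0 of 75 cells, which allows a share of up to 4.80%. On this scale TSPAN10 and NMRK2 kept the order of libraries of their levels. SERPINF1 was found in 43.6%, 55.6% and 32.3% of melanocyte-like cells and LGI3 in 1.28%, 5.57% and 4.59%. RAMP1 was found in 1.28%, 3.08% and 1.38% of melanocyte-like cells against 5.15%, 2.47% and 1.33% of others, and LINC00520 in 1.61%, 1.42% and 6.85% against 0.998%, 0.247% and 1.33%. As deposited, at full depth, the shares were larger, for NMRK2 8.15%, 18.9% and 16.1%, for CRYGD 0.602%, 11.9% and 13.8% and for TSPAN10 15.9%, 59.2% and 58.3%.

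Between D23 and D32, 4 of the 7 genes were at least 2-fold higher in D32, beside 4.80% of the 12894 genes tested. Tested genes are those with a mean of at least 1 CPM in melanocyte-like cells over the 3 libraries. All 7 passed this minimum, CRYGD only through its later libraries. The 4 were CRYGD, at 17.1-fold (10.5 to 30.0), LGI3, at 5.21-fold (4.19 to 6.55), TSPAN10, at 2.94-fold (2.69 to 3.22), and RAMP1, at 2.32-fold (1.92 to 2.83). SERPINF1 was 1.85-fold higher (1.80 to 1.91) and NMRK2 1.36-fold (1.22 to 1.52), whereas LINC00520 was lower, at a ratio of 0.688 (0.582 to 0.818). For NMRK2 this direction turned among cells of the same pigment range. It was at 8.01 (6.98 to 9.14) CPM in D23 against 2.44 in D32 for 10 to 50 pigment gene UMIs per 10000, at 17.4 (13.9 to 21.3) against 7.45 for 50 to 100 and at 75.9 (56.7 to 99.5) against 22.0 for 100 to 150. In the same 3 ranges RAMP1 was also higher in D23 than in D32, at 1.91 against 1.28, 8.675 (6.33 to 11.6) against 3.87 and 19.0 against 11.3 CPM. Its intervals were separate only for 50 to 100. SERPINF1 was at 114 against 80.2, 219 against 192 and 308 against 321.5 CPM. TSPAN10 was at 11.6 against 9.59, 30.85 against 29.6 and 40.85 against 62.8 CPM. CRYGD and LGI3 stayed lower in D23 in these ranges. The range of 150 or more held only 5 D23 cells. The median log2 ratio was 1.21 over the 7 genes and −0.13 over all tested genes. The 7 genes were selected as leaders of a pigmented group. Melanocyte-like cells of D32 held more pigment gene UMIs, at a median of 87.34 per 10000 against 29.45 in D23. Nothing is therefore read from the count of 4 or from the median log2 ratio. Of 19 melanosome genes, 9 were at least 2-fold higher in D32, with TYR at 49.1 against 241 CPM. Of the 20 genes of the NAD and integrin list, BST1, an ectoenzyme that can split NAD, was at least 2-fold higher in D32 and ITGB1, the gene of integrin beta-1, at least 2-fold lower, and of the 20 tetraspanins 6 were higher and 0 lower. The share of all tested genes at least 2-fold lower in D32 was not computed. This interval of days also spans 2 inductions and 2 sequencing batches.

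From D32 to D44, within the same induction and batch, 1 of the 7 genes was at least 2-fold higher, beside 1.05% of genes tested. This was LINC00520, at 6.20-fold (5.75 to 6.69). CRYGD and TSPAN10 were higher by less, at 1.59-fold (1.50 to 1.68) and 1.20-fold (1.17 to 1.23). RAMP1, SERPINF1 and LGI3 were lower in D44, at ratios of 0.437 (0.403 to 0.473), 0.496 (0.489 to 0.503) and 0.864 (0.821 to 0.909). The median log2 ratio was −0.02 over the 7 genes and −0.03 over all tested genes. Since the 7 genes were selected on these cells, nothing is read from the count of 1. The comparisons of D32 with D23 and of D44 with D32 share the D32 library.

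Between melanocyte-like and other cells, the contrast closest to the one that selected the genes, 4, 6 and 6 of the 7 were at least 2-fold higher in melanocyte-like cells of D23, D32 and D44, beside 8.15%, 10.6% and 7.25% of genes tested. Nothing is read from these counts. At the edge of the class, D23 cells just inside the limit (10 to 12 pigment gene UMIs per 10000, 103 cells) held 1.51 CPM of NMRK2, 6.80 of TSPAN10 and 57.4 of SERPINF1. The 93 cells just outside it (8 to 10 per 10000) held 0.920, 4.60 and 41.4 CPM. These levels rest on 2, 9 and 76 UMIs inside the limit and on 1, 5 and 45 UMIs outside it. With so few UMIs of NMRK2 and TSPAN10, no step at the limit is read for them. D32 and D44 had between 9 and 14 cells in each of these ranges, with at most 1 UMI of NMRK2 or CRYGD in each.

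Within the melanocyte-like class, cells were ranked by the 4 pigment genes and cut into 5 groups of equal size (quintiles). NMRK2 ran from 4.93 to 25.5 CPM between the lowest and highest quintile in D23, from 2.80 to 43.1 in D32 and from 0.979 to 52.8 in D44. The spread between quintiles was thus 5.18-fold (3.54 to 7.77), 15.4-fold (12.8 to 18.5) and 53.9-fold (41.0 to 72.4), widest in D44, where the lowest quintile was lowest and the highest quintile highest. A larger ratio was found for 43, 5 and 9 of the tested genes in D23, D32 and D44. TSPAN10 ran from 7.03 to 31.6 CPM, from 11.1 to 102 and from 6.23 to 148, for ratios of 4.50 (3.26 to 6.32), 9.14 (8.33 to 10.0) and 23.7 (21.2 to 26.6). CRYGD ran from 2.21 to 21.5 CPM in D32 and from 1.71 to 45.8 in D44, for ratios of 9.71 (7.90 to 12.1) and 26.7 (21.7 to 33.4), which were 5.64 (4.55 to 7.06) and 8.65 (6.93 to 10.9) without the cells of 20 or more CRYGD UMIs. In D23 its quintiles held 3 and 4 UMIs, with no difference detectable.

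SERPINF1 ran from 69.1 to 223 CPM, from 89.8 to 494 and from 33.1 to 296, and LGI3 from 1.20 to 6.69, from 5.54 to 24.8 and from 3.78 to 24.4. Both therefore increased with the pigment genes in each library, by ratios of 3.23 (2.91 to 3.60), 5.50 (5.31 to 5.68) and 8.92 (8.49 to 9.38) for SERPINF1 and 5.60 (2.60 to 13.8), 4.47 (3.89 to 5.14) and 6.45 (5.55 to 7.52) for LGI3. RAMP1 had ratios of 3.80 (2.19 to 6.93) and 16.0 (12.4 to 20.9) in D23 and D32 and only 1.99 (1.66 to 2.40) in D44, where its lowest quintile, at 3.41 CPM, lay above the next one, at 1.53 CPM. LINC00520 had the smallest ratio of the 7 in D32, at 2.62 (2.04 to 3.39), with 3.73 (2.21 to 6.57) in D23 and 3.47 (3.16 to 3.81) in D44. In all, 6, 7 and 6 of the 7 genes were at least 2-fold higher in the highest than in the lowest quintile, beside 2.57%, 1.96% and 4.02% of genes tested, and this too follows from how they were selected. For comparison, MITF differed by 1.10-, 1.54- and 1.95-fold, SOX10 by 0.934-, 1.01- and 0.939-fold, RAB27A by 2.45-, 3.20- and 3.90-fold and the cation channel gene TRPM1 by 1.83-, 2.34- and 4.14-fold. TYR ran the other way over days, at 8.62-, 2.96- and 1.58-fold.

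**Figure D2:**
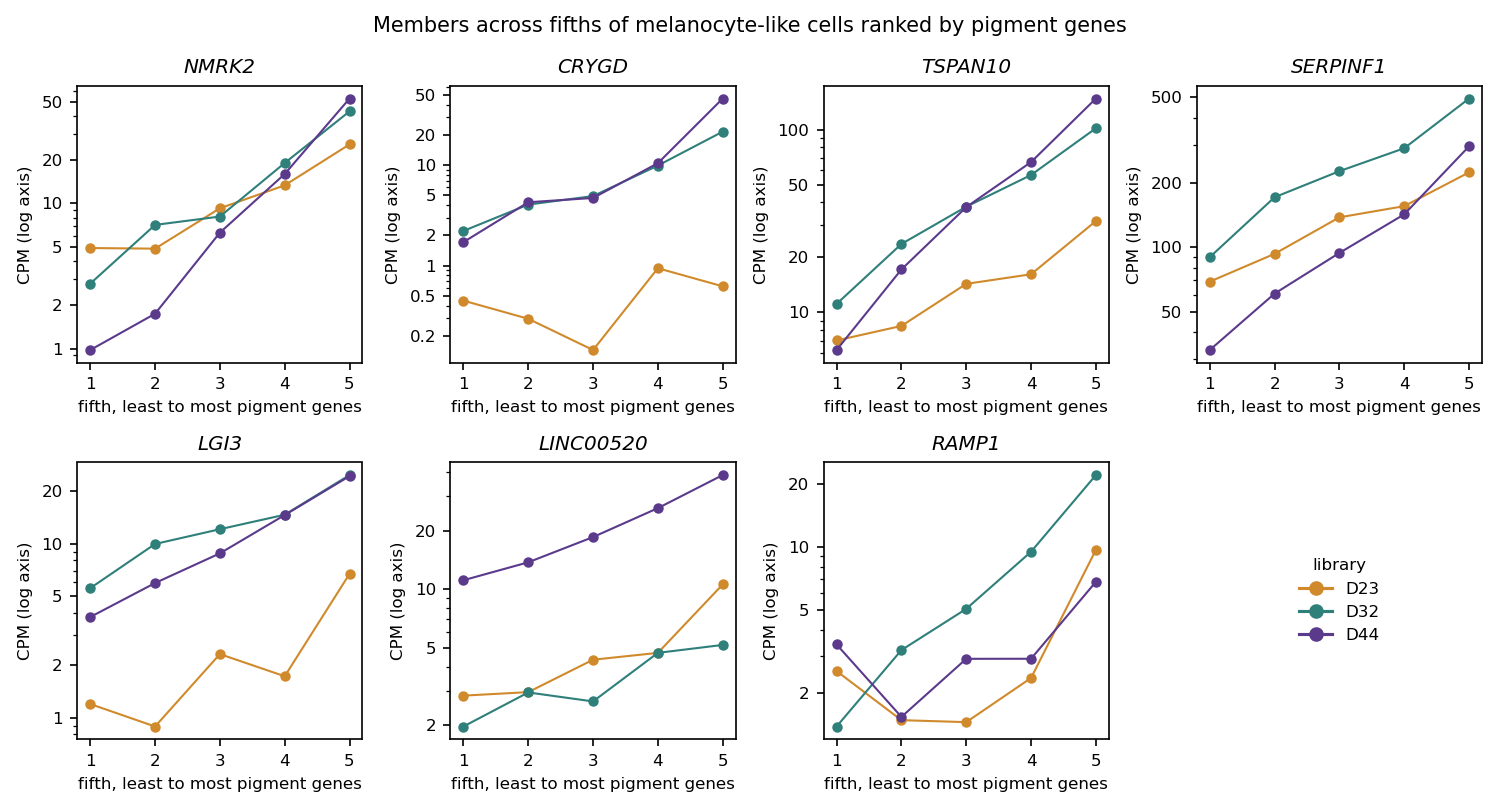
Level of each of the 7 genes in CPM (log axis) in 5 equal groups of melanocyte-like cells, from the least (1) to the most (5) pigment gene UMIs, with 1 line per library. The D44 lines of NMRK2 and TSPAN10 are the steepest of the 3, LINC00520 lies higher in D44 than in D32 in every group, and the CRYGD line of D23 rests on 16 UMIs.

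The quintiles hardly differed in depth, with medians of 12205 to 12935 UMIs in D23, 35125 to 38302 in D32 and 42408 to 43502 in D44. The median mitochondrial share went from 3.70% to 4.67% in D23, from 4.61% to 5.55% in D32 and from 4.61% to 5.04% in D44. Cell cycle genes were lower in pigmented cells, at medians of 39.5, 52.3 and 62.9 UMIs per 10000 in the lowest quintile against 24.8, 24.1 and 19.8 in the highest. Neural and neural crest markers summed to 1807, 149 and 31.5 CPM in the lowest and 138, 18.2 and 12.1 CPM in the highest quintile. Mesenchymal markers summed to 571, 334 and 76.9 CPM against 344, 103 and 58.5 CPM, and COL1A1 to 94.5, 47.4 and 3.65 against 10.7, 1.11 and 0.431 CPM. Their part in the quintile values was not tested.

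Of the NAD and integrin list, NMRK2 was the only one at least 2-fold higher in the highest quintile in each library. NAMPT, the rate-limiting enzyme of NAD salvage from nicotinamide, ran the other way, from 41.1 to 33.9, from 55.3 to 39.4 and from 73.9 to 32.3 CPM, for ratios of 0.825 (0.688 to 0.990), 0.714 (0.670 to 0.760) and 0.436 (0.412 to 0.462). NMRK1 was slightly higher in the highest quintile, at 1.51-, 1.50- and 1.63-fold. NAPRT had ratios of 0.914, 0.915 and 0.828, and QPRT, which makes NAD from tryptophan products, of 1.18, 1.16 and 1.22. NT5E ran from 7.32 to 2.14 CPM in D32 and from 12.8 to 1.33 CPM in D44. Of the tetraspanins only TSPAN10, and of the LGI list only LGI3, was at least 2-fold higher in the highest quintile in each library. In single libraries, 2.57%, 1.96% and 4.02% of all tested genes were this much higher. NMRK2, TSPAN10 and LGI3 were selected on these cells, so nothing is read from their places in the lists. SERPINB9, an inhibitor of granzyme B, joined SERPINF1 in D32 and D44, at 2.94- and 4.44-fold.

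Cells were also ranked by 93 S and G2M phase genes and cut into 3 equal groups (tertiles). In D44, 6 of the 7 genes were at least 2-fold higher in the least than in the most cycling tertile, beside 2.21% of genes tested. NMRK2 stood at 23.6 against 9.74 CPM there, TSPAN10 at 82.8 against 33.2 and SERPINF1 at 184 against 74.9, whereas CRYGD, at 14.7 against 11.1 CPM, differed by 1.33-fold (1.22 to 1.44). In D32 none of the 7 reached 2-fold, beside 1.55% of genes tested, and the ratios ran from 0.906 for LINC00520 to 1.93 for RAMP1. In D23, 4 of the 7 did, beside 2.71%, namely TSPAN10, LGI3, LINC00520 and RAMP1, and this count was 2 when melanocyte-like cells needed 30 pigment gene UMIs per 10000. No melanosome gene of 19 reached 2-fold in any library, with TYR at 1.99-, 1.52- and 1.39-fold. The least cycling tertile was also more pigmented, at medians of 33.8, 99.5 and 129 pigment gene UMIs per 10000. The most cycling tertile held 24.8, 76.9 and 90.1. Because the 7 genes were selected in a pigmented group, nothing is read from these counts of members.

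Tertiles of pigment and of cycling were then crossed, and the pigment level may still differ between cycling groups of a tertile. In the most pigmented tertile of D32, NMRK2 was at 32.2, 34.9 and 34.4 CPM from the least to the most cycling cells, and in the least pigmented at 2.67, 4.40 and 5.12 CPM. Within these pigment tertiles of D32, NMRK2 was thus not lower in the most than in the least cycling cells, whereas over all cells it was, at 16.4 against 14.6 CPM. In D44 the most pigmented tertile held 44.2, 36.0 and 33.1 CPM and the least pigmented 1.49, 1.77 and 0.842 CPM. SERPINF1 was lower in more cycling cells within a pigment tertile, at 508, 386 and 322 CPM in the most pigmented tertile of D32 and 287, 243 and 155 CPM in that of D44. TSPAN10 did so too, at 101, 78.4 and 67.4 CPM in D32 and 138, 112 and 88.0 CPM in D44. CRYGD had no order with cycling, at 17.9, 14.2 and 19.9 CPM in D32 and 25.02, 38.3 and 34.9 CPM in D44.

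Across cells, correlations of log(1 + UMIs per 10000) were taken in each library, where cells share depth and preparation, and are given without a p. With PMEL, Pearson's r of TSPAN10 was 0.16, 0.49 and 0.56 and that of SERPINF1 was 0.35, 0.57 and 0.49 (2490, 5618 and 5736 cells). NMRK2 had 0.15, 0.28 and 0.30, LGI3 0.09, 0.26 and 0.24, RAMP1 0.09, 0.28 and 0.08, CRYGD 0.01, 0.14 and 0.18 and LINC00520 0.04, 0.05 and 0.13. SERPINF1 and TSPAN10 thus followed PMEL most closely, and only 1 tested gene in D32 lay above SERPINF1. An r of at least 0.1 was reached by 3, 6 and 6 of the 7, beside 1.16%, 5.99% and 8.0% of genes tested. Since the 7 were selected on these cells, nothing is read from these counts. After thinning to 5000 UMIs per cell, r was lower, at 0.12, 0.25 and 0.33 for TSPAN10 and 0.10, 0.18 and 0.20 for NMRK2. In counts as sparse as those of CRYGD, and of LINC00520 in D23 and D32, a weak correlation is no finding. In D44 LINC00520 was not sparser than NMRK2, with 5663 against 4027 UMIs, and had the lower r with PMEL. The r of NMRK2 with log depth was 0.11, 0.11 and 0.10.

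Among the 21 pairs of the 7 genes, the median r was 0.07, 0.26 and 0.20, and 16, 21 and 21 pairs were above 0. The closest pairs were TSPAN10 with SERPINF1, at 0.44 in D32 and 0.52 in D44, and TSPAN10 with NMRK2, at 0.42 and 0.52. RAMP1 went with NMRK2 at 0.39 in D32 and at 0.19 in D44. LINC00520 reached an r of at most 0.08 with another member in D32 and reached 0.24, with TSPAN10, in D44. Since all 7 genes were selected on these cells, the sizes describe the set.

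**Figure D3:**
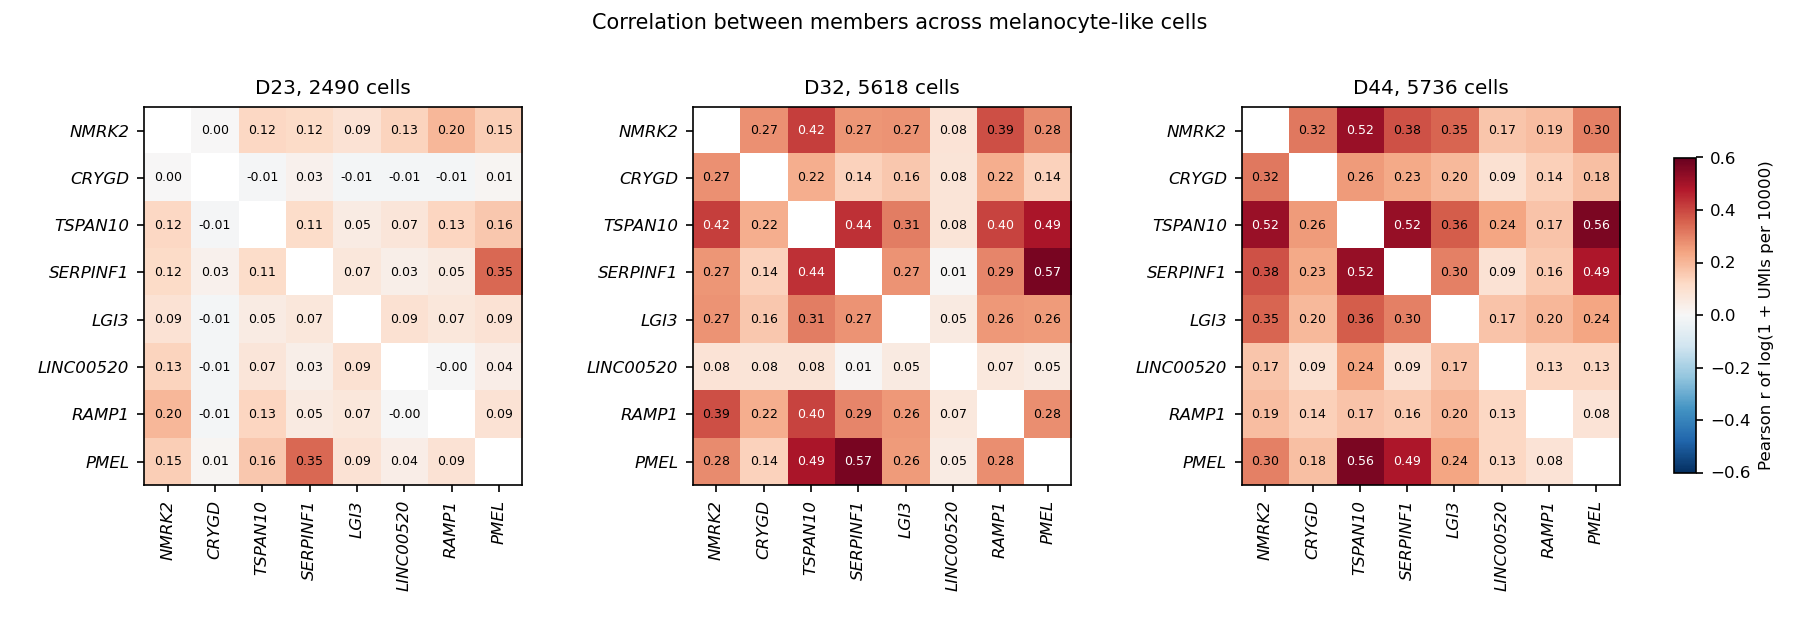
Pearson r of log(1 + UMIs per 10000) across melanocyte-like cells for every pair of the 7 genes and for each gene with PMEL, in D23, D32 and D44 (red above 0, blue below). TSPAN10, SERPINF1, NMRK2 and PMEL form the darkest cells in D32 and D44, whereas the CRYGD row is near 0 in D23.

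The genes most like each of the first 3 members were ranked by their mean r over the 3 libraries, among the 10419 genes found in at least 5% of melanocyte-like cells of each library. For NMRK2 they were TSPAN10 (mean r 0.35), RAB27A (0.31), TRPM1 (0.31), SLC7A5 (0.26), an amino acid transporter gene, and MET (0.26), the receptor of hepatocyte growth factor. For TSPAN10 they were PMEL (0.41), RAB27A (0.40), TRPM1 (0.38), RAB38 (0.37), which sorts enzymes to melanosomes, and SERPINF1 (0.36). CRYGD was most like NMRK2 (0.20), TSPAN10 (0.16), RAB27A (0.14), SERPINF1 (0.13) and TRPM1 (0.13). The melanosome genes RAB27A and TRPM1 stood in all 3 lists, beside other members of the 7. The list of CRYGD rests on D32 and D44 alone, with each r between −0.01 and 0.03 in D23.

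The spread of each gene over cells was described by the share of its UMIs in the cells with the highest counts, which is larger for a gene of few UMIs by counting alone. The 5% of melanocyte-like cells with the highest counts held 12.4%, 12.6% and 13.0% of PMEL UMIs in D23, D32 and D44. They held 22.2%, 22.3% and 31.6% of SERPINF1 UMIs, 46.8%, 28.6% and 31.1% of TSPAN10 UMIs and 79.2%, 64.2% and 74.0% of NMRK2 UMIs. For CRYGD the share was 79.3% in D32 and 85.5% in D44, and for LGI3 40.3% and 47.3%. The share that abundance alone would give was not computed. The variance over the mean of the UMIs per cell, another measure of spread, was 3.81, 7.42 and 10.3 for NMRK2, 1.12, 21.2 and 53.0 for CRYGD and 1.35, 3.97 and 6.27 for TSPAN10 against 6.89, 65.8 and 87.2 for PMEL. This measure can rise with the UMIs per cell, and PMEL held 1290452 UMIs in D44 against 3465 for CRYGD. Genes of unlike level and days of unlike depth therefore cannot be ranked by it. Of the cells with 3 or more NMRK2 UMIs, 417 in D32 and 398 in D44, 93.1% and 98.7% also had TSPAN10, against 53.2% and 51.9% of cells with none, and 33.6% and 42.5% had CRYGD, against 8.65% and 10.4%. These cells were deeper, with medians of 47198 and 52602 UMIs against 35303 and 41850, and more pigmented, with 127 and 176 pigment gene UMIs per 10000 against 82.2 and 98.9. The part of depth in these shares was not tested.

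**Figure D4:**
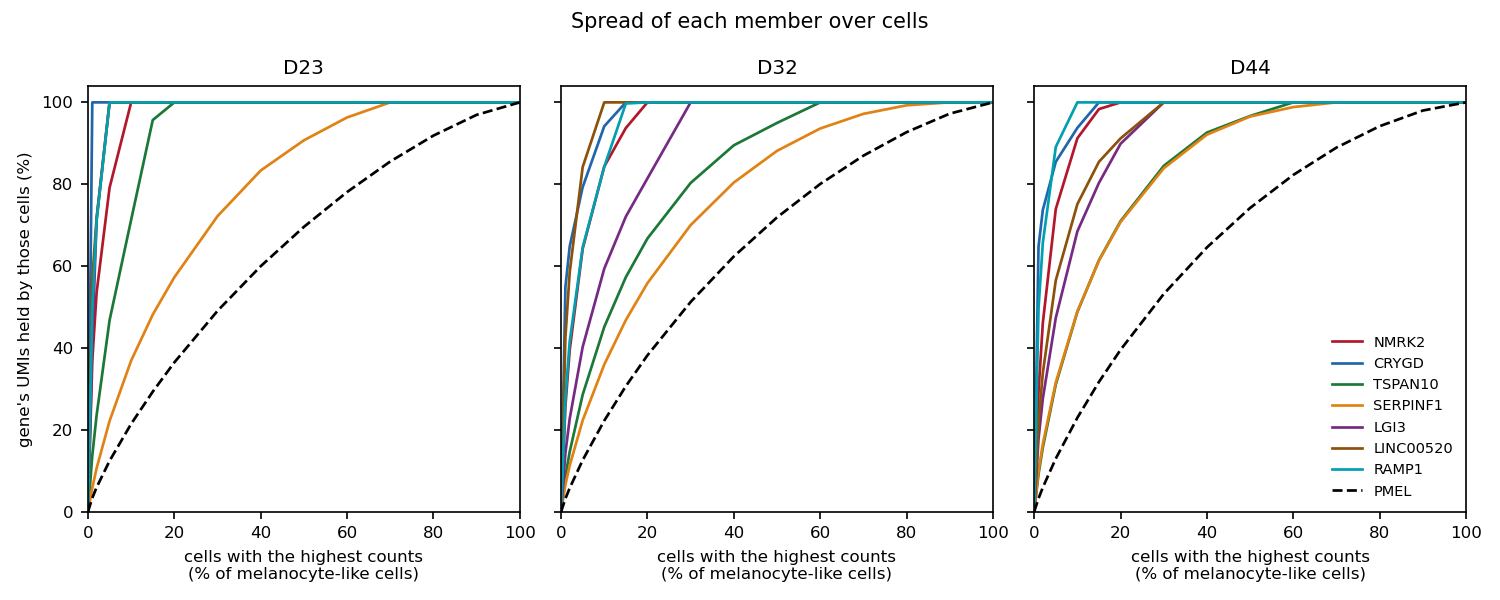
Share of the UMIs of each gene (vertical axis, %) held by the melanocyte-like cells with the highest counts of it (horizontal axis, % of cells), in D23, D32 and D44, with PMEL dashed. SERPINF1 lies nearest to PMEL in D23 and D32, and the SERPINF1 and TSPAN10 lines lie close together in D44. CRYGD is among the steepest lines, so that 5% of cells hold 79.3% of its UMIs in D32 and 85.5% in D44.

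The share of strongly pigmented cells differed between the later libraries, with 552 cells of D32 and 1277 of D44 at 150 or more pigment gene UMIs per 10000. Levels were therefore set side by side in cells of the same pigment range. NMRK2, whose levels over all cells did not differ beyond counting error between these libraries, was lower in D44 in each of 4 ranges, at ratios of 0.327 (0.204 to 0.511) for 10 to 50, 0.287 (0.242 to 0.337) for 50 to 100, 0.516 (0.476 to 0.560) for 100 to 150 and 0.819 (0.766 to 0.877) for 150 or more. SERPINF1 was lower in D44 throughout, at 0.337, 0.311, 0.368 and 0.460, and LGI3 likewise, at 0.732, 0.554, 0.684 and 0.830. LINC00520 was higher in D44 throughout, at 5.19 (3.97 to 6.86), 5.32 (4.68 to 6.07), 4.76 (4.22 to 5.37) and 6.40 (5.30 to 7.79). TSPAN10 went from 0.522 (0.431 to 0.630) in the least pigmented range to 1.07 (1.02 to 1.12) in the most. CRYGD was at 1.35 (1.24 to 1.48) in the most pigmented range, and at 0.580 to 0.995 in the others, with the 32 cells that held 55.6% of its D44 UMIs included. RAMP1 changed sides, from 3.01 (2.12 to 4.34) in the least pigmented range to 0.202 (0.177 to 0.231) in the most.

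**Figure D5:**
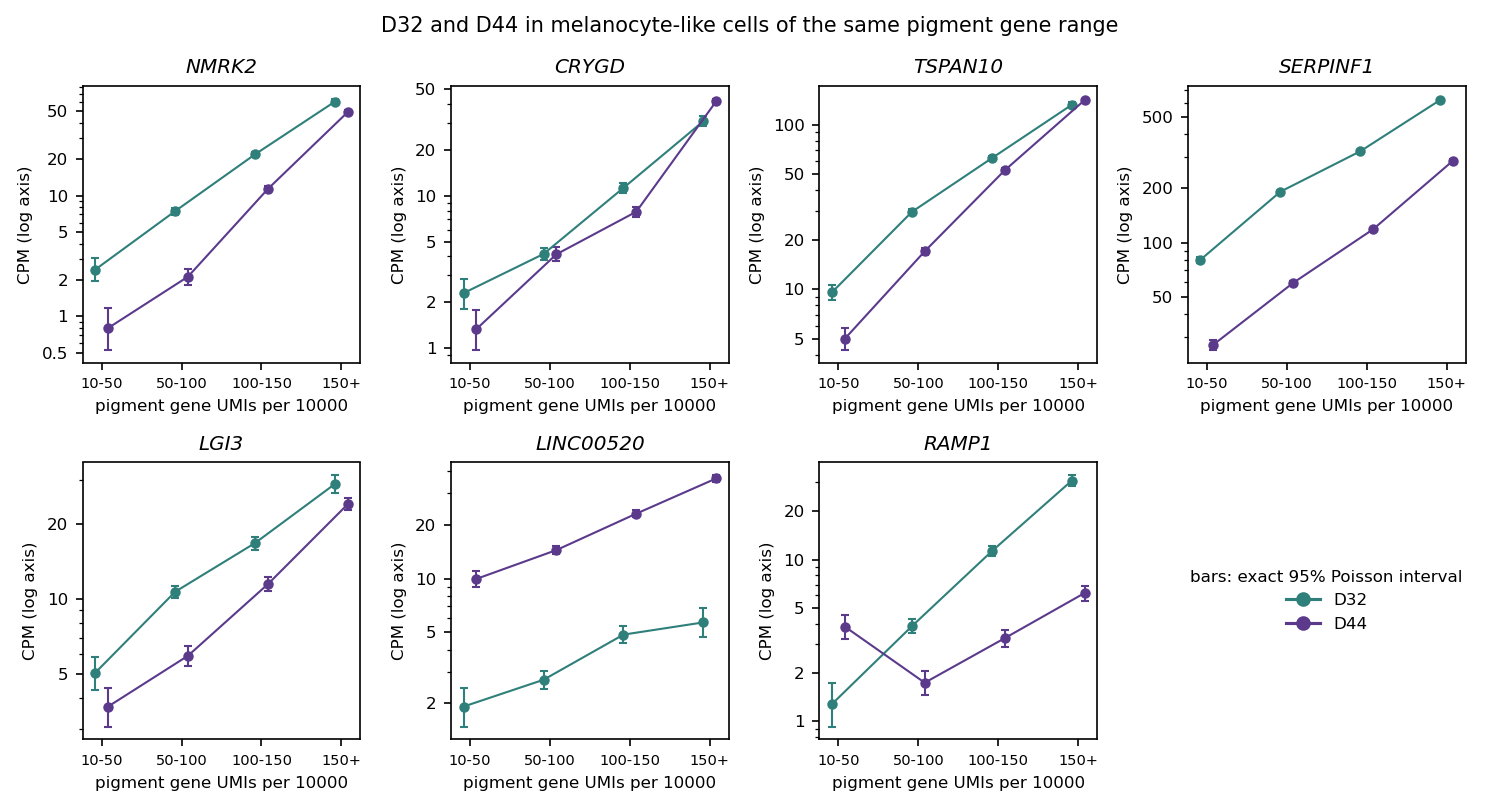
Level of each of the 7 genes in CPM (log axis) in D32 and D44 melanocyte-like cells of the same range of pigment gene UMIs per 10000, with exact 95% Poisson intervals. NMRK2, SERPINF1 and LGI3 lie lower in D44 in all 4 ranges, LINC00520 lies higher in all 4, and the RAMP1 lines cross.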

How the data were processed

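The authors deposited matrices of unnormalized UMI counts, 1 per library, made with Cell Ranger 6.1.2 on hg38 per the submitters' processing notes. The annotation release and strand setting are not given in the sources used here. Cells were kept by the limits of the study: over 1000 and under 7000 genes and under 50000 UMIs in D23, over 3000 and under 9000 genes and under 100000 UMIs in D32 and D44, over 500 UMIs, and at most 10% mitochondrial UMIs. This kept 15630 of 22522 barcodes, and the study states 15630 cells. The libraries held 53298735, 268339312 and 280879346 UMIs before this filter. Doublets called by Scrublet (0.8% per 1000 barcodes) were kept, except in 1 alternative. A count of 3 UMIs was 0.0905, 0.0131 and 0.0114 CPM. Levels are summed UMIs with exact Poisson intervals, ratios have exact conditional intervals and shares exact binomial ones (Clopper-Pearson), and a fold of 2 or an r of 0.1 was called. No test was run, since each day is 1 library. Scripts were tested on simulated data. Tools were Python 3.11.15, numpy 2.4.6, scipy 1.17.1, pandas 2.3.3, matplotlib 3.10.9 and Scanpy 1.11.5. The members, gene lists, limits and the rule for named genes (all 7 members, list genes at 10 CPM or more or paired in a list, and the 5 genes most like each of NMRK2, CRYGD and TSPAN10) were chosen with earlier results of these data known.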

Additional observations from a re-analysis of the deposited data

Results flagged for a closer look

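RAMP1 went opposite ways in different libraries when melanocyte-like cells were set against other cells, which drew attention to it. The ratio was 0.2466 (0.195 to 0.310) in D23 and 1.872 (1.43 to 2.49) in D32. The difference between the libraries was not tested. The makeup of the other cells also differed, with neural and neural crest markers at 7177 CPM in D23 and 2387 CPM in D32, and its part in the RAMP1 ratio was not tested.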

How the results depend on the processing

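No paired analysis was possible because each day has 1 library. Counts of members at 2-fold or at an r of 0.1 stayed within 1.5 times of the reported value in 103 of 107 alternatives. The exceptions concern the cycling tertiles: 2 of 7 members in D23 (4 reported) when melanocyte-like cells needed 30 pigment gene UMIs per 10000, and 1 in D32 (0 reported) under 1 cell filter for all libraries, without called doublets, and with cells ranked by G2M genes alone. The cause was not tested. Of 147 levels recomputed as planned, 76 stayed within their counting interval and 71 did not. The largest moves were CRYGD in D44 at 6.66 CPM and RAMP1 in D44 at 2.26 CPM under 1 filter for all libraries, and NMRK2 and LGI3 in D23 at 17.6 and 3.95 CPM under the limit of 30. Leaving out cells of 20 or more CRYGD UMIs was chosen after seeing the data. None of the values reversed. Shares of cells depend on the depth they are thinned to. With 1 library per day, spread between cultures is unknown, and the 75 other cells of D44 limit what can be said there.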

Other observations

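The genes most like the 4 other members, looked up after their values were seen, were other members of the 7, genes known from melanosomes and genes of other roles. SERPINF1 was closest to PMEL (mean r over the 3 libraries 0.47), the polyamine-catabolism gene SAT1 (0.42) and the insulin-like growth factor-binding protein gene IGFBP7 (0.39), whose level was 41.8, 302 and 165 CPM in D23, D32 and D44, highest in D32 as was that of SERPINF1. RAMP1 was closest to NMRK2 (0.26), TSPAN10 (0.24), IGFBP7 (0.23) and BAMBI (0.20), a pseudoreceptor gene of the TGF-beta pathway. LGI3 was closest to TSPAN10 (0.24), NMRK2 (0.24) and TRPM1 (0.23). The highest mean r of LINC00520 was 0.13, with RAB27A.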
